A study of Mus musculus and Rattus norvegicus with 18 samples.

Results

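The genes described here make cholesterol and fatty acids. They are 36 symbols that cover the mevalonate and sterol pathway, its SREBP regulators, the enzymes of fatty acid synthesis, elongation and desaturation, and the sterol transporters Stard4 and Abca1. Matched by symbol, 34 of them were found among the 55487 gene IDs of the heart RNA table, 34 among the 17866 genes of the heart ribosome footprint table and 35 among the 32883 gene IDs of the rat H9C2 table. Scd is the rat name of the gene called Scd1 in mouse, so each species holds only 1 of those 2 symbols, and mouse Fdft1 was not analysed here.

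The libraries come from 2 models of Mettl1 loss. Mettl1 is the catalytic subunit of the methyltransferase that places 7-methylguanosine on tRNAs. Heart RNA and heart footprints were each measured in 2 Mettl1 conditional knockout (cKO) and 2 control (Ctrl) hearts of C57BL/6 mice aged 4 weeks. The labels do not give the driver, the promoter or the cell type of the deletion, nor the alleles that the Ctrl hearts carry. H9C2, a myoblast line derived from embryonic rat heart, was measured in 3 Mettl1-null libraries, all from a single genome-edited line with a CRISPR-Cas9 frameshift, and in 3 WT libraries. Both were labelled with the strain Sprague-Dawley and grown in high-glucose DMEM with fetal bovine serum. The labels do not state whether replicates were separate animals or separate cultures. The p-values therefore reflect only how far these libraries spread, which may be technical.

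Cells build cholesterol from acetyl-CoA through the mevalonate pathway, then through squalene and lanosterol, and they build fatty acids from the same precursor through malonyl-CoA. The transcription factors SREBP-2 and SREBP-1, encoded by Srebf2 and Srebf1, switch on most of these genes. When membrane sterol is plentiful, INSIG proteins hold SCAP and its SREBP cargo in the endoplasmic reticulum, and the genes are expressed less. Heart muscle mainly oxidises fatty acids that it takes up, while dividing cells in culture need lipid for new membrane.

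The targeted gene and the tissue markers were checked first. Levels are CPM, counts per 1e+06 counts of a library with TMM factors. Mettl1 RNA was found at 2.49 and 2.52 CPM in cKO hearts, against 4.31 and 3.76 CPM in Ctrl hearts, a log2 fold change of -0.69 (SE 0.24) that missed the threshold of 0.05 (edgeR quasi-likelihood test with Benjamini-Hochberg adjustment over all genes, adjusted p = 0.0664). Its footprints stood at 2.22 and 2.22 CPM in cKO hearts, against 6.28 and 6.62 CPM in Ctrl hearts (log2 fold change -1.54, SE 0.21, edgeR adjusted p = 1.01e-04). In H9C2, Mettl1 had 4.28, 4.72 and 3.75 CPM in Mettl1-null cells, against 16.6, 15.6 and 16.2 CPM in WT cells (log2 fold change -1.93, SE 0.11, edgeR adjusted p = 1.11e-05). All of these went the way the labels say. Total counts per library ran between 15052652 and 16844783 for heart RNA, between 25171650 and 39675627 for footprints and between 90321496 and 94202947 for H9C2. Cardiomyocyte markers were abundant in heart RNA, at a summed 30227 to 30239 CPM in cKO hearts, against 32507 to 33100 CPM in Ctrl hearts. The labels call H9C2 cells cardiomyocytes, but the 5 cardiomyocyte markers found in the rat table summed to 7.54 to 8.46 CPM in Mettl1-null cells, against 22.3 to 25.1 CPM in WT cells, with Ryr2 at 0 in every library. Myoblast and skeletal muscle markers summed to 290 to 308 CPM in Mettl1-null cells, against 155 to 183 CPM in WT cells, with Myf5 at 0.

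Loss of Mettl1 went with a broad fall of the synthesis genes in H9C2 cells and with little change of them in the heart. The null libraries are all from a single edited line, so a trait of that line cannot be told apart from the loss of Mettl1. In H9C2, 31 of the 35 members fell and none rose (edgeR, adjusted p under 0.05). Over all 14801 genes tested there, 11.5% fell and 13.6% rose, and with library totals as the scaling the 2014 higher and 1706 lower genes became 2341 and 1370. The 3 null libraries all lay below the 3 WT libraries for 31 members and above them for 0, beside 19.8% and 22.8% of all genes. No member was higher in H9C2 at an unadjusted p under 0.05 either, nor with DESeq2 or limma-voom. The median log2 fold change of the members was -0.89, beside 0.0044 over all genes tested. In heart RNA, 3 of the 33 members tested rose, which were Scd2, Insig1 and Hsd17b7, and none fell. Over all 14088 genes tested in the heart, 8.16% rose and 6.26% fell, so the members' share of calls was near or below that of all genes. The 1150 higher and 882 lower genes became 1769 and 506 with library totals. With edgeR, 2 members were lower at an unadjusted p under 0.05, Scd1 and Pmvk, and none was called lower by DESeq2 or limma-voom. Both cKO hearts lay above both Ctrl hearts for 6 members and below both for 6, beside 27.8% and 27.2% of all genes. The members' median log2 fold change in heart RNA was -0.026, beside -0.00013 over all genes.

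**Figure D1:**
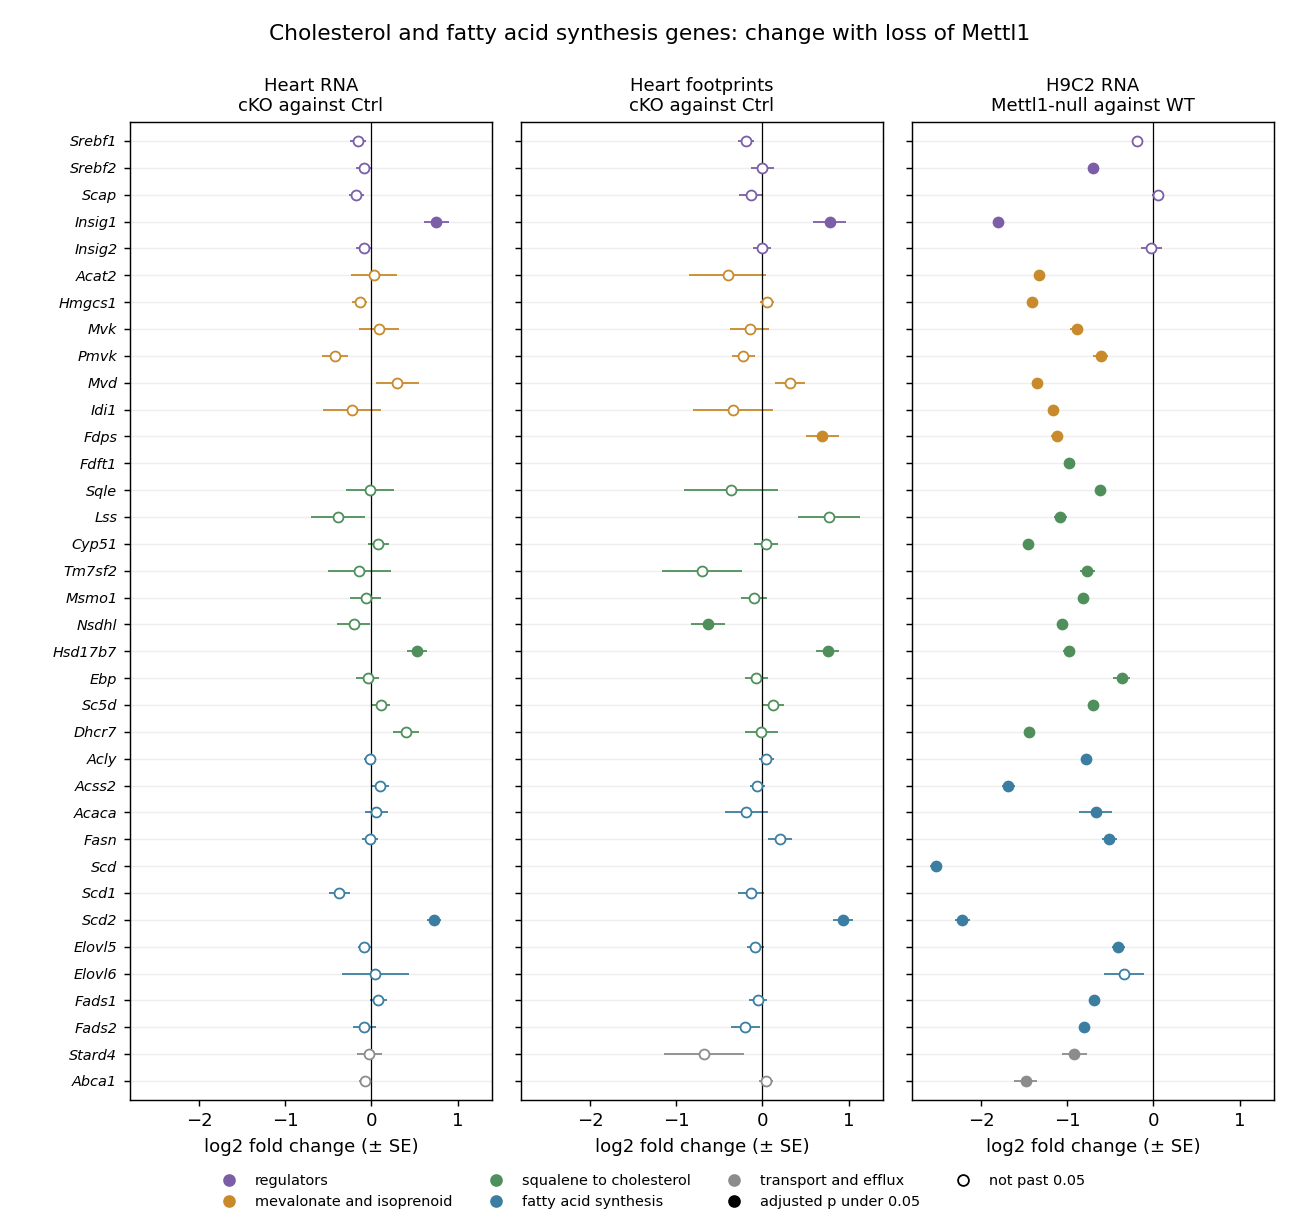
Log2 fold change with its SE (x axis) of each member (rows, coloured by role) in heart RNA, heart footprints and H9C2 RNA, with filled points for adjusted p under 0.05 by edgeR; a row without a point was not tested there. In H9C2, 31 of 35 points are filled and lie left of 0, while in heart RNA the 3 filled points, Insig1, Scd2 and Hsd17b7, lie right of 0.

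Summed over the members, the RNA level stood at 3965, 3860 and 3857 CPM in Mettl1-null cells, against 9118, 8615 and 9596 CPM in WT cells. Every null library lay far below every WT library. Scd2 alone was a large part of that sum, and without it the sums were 3440, 3353 and 3354 CPM in Mettl1-null cells, against 6743, 6539 and 6903 CPM in WT cells. In heart RNA the members summed to 790.1 and 750.1 CPM in cKO hearts, against 720.4 and 781.2 CPM in Ctrl hearts, and in footprints to 783 and 768 CPM in cKO hearts, against 720 and 766 CPM in Ctrl hearts. The heart groups overlapped in RNA. In footprints both cKO hearts lay slightly above both Ctrl hearts, and without Scd2 they overlapped, at 758 and 743 CPM in cKO hearts, against 708 and 752 CPM in Ctrl hearts. In these bulk samples, fewer cells of a type and less RNA per cell cannot be told apart.

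**Figure D2:**
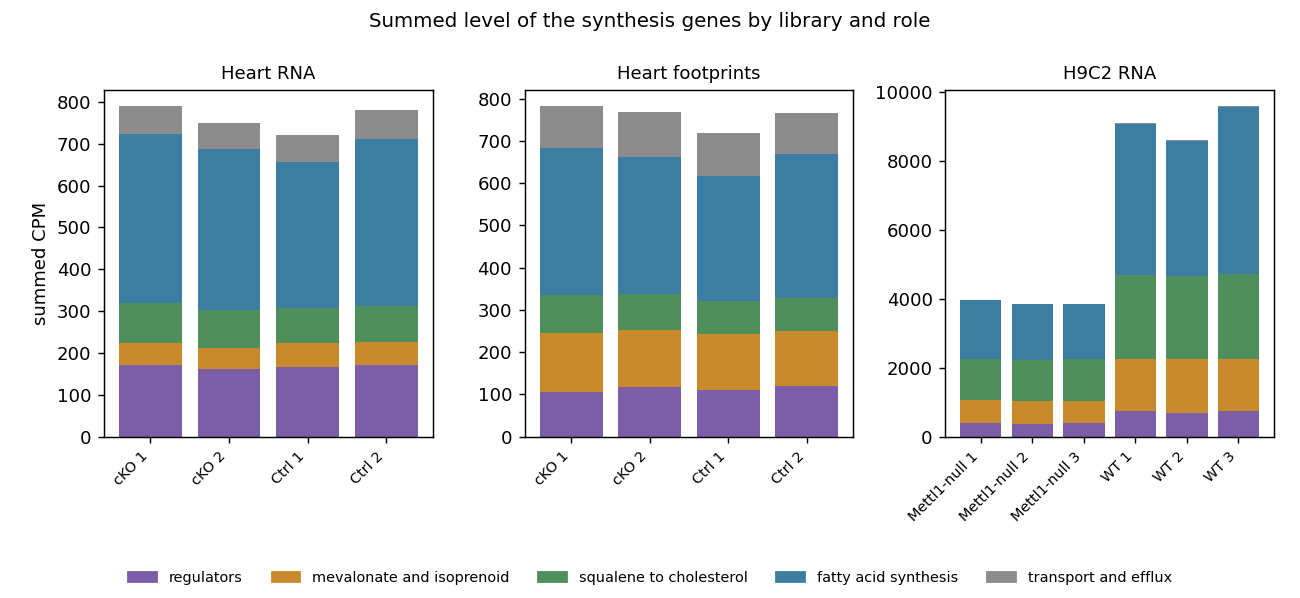
Summed CPM of the members (y axis, from 0, a separate scale in each panel) in each library, stacked by role. The 3 Mettl1-null bars stand between 3857 and 3965 CPM and the 3 WT bars between 8615 and 9596 CPM, while the heart bars of cKO and Ctrl stand at similar heights.

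The promoters of the members were compared, since so many of them moved together in H9C2. SREBPs bind sterol regulatory elements, and NF-Y, which binds CCAAT boxes, is a known partner of SREBPs at these promoters. The 250 bases before the start site were searched on both strands in the RefSeq table for mouse GRCm38.p6, which held 28 of the members. CCAAT, or ATTGG on the other strand, occurred in 21 of the 28 (75.0%), beside 37.5% of all 27025 genes in the table, which were not limited to expressed genes. It was found for Insig2 and Srebf1, which were not called in H9C2. It was missing for Acat2, Acly, Acaca, Fads2 and Abca1, which fell there, and for Scap and Elovl6, which were not called. Whether the motif goes with the fall was not tested. The sterol element TCACNCCAC occurred in 1 of the 28 (3.57%), beside 1.22% of all genes, and its shorter core TCACNCCA, which every TCACNCCAC also holds, in 3 of the 28 (10.7%), beside 4.2% of all genes. Those 3 were Hmgcs1, Msmo1 and Srebf2. A match is a run of letters and not a measured binding site, and the windows are of mouse, while the broad fall was measured in rat cells. The sequences printed are those of Hmgcs1 and Srebf2, which hold CCAAT and TCACNCCA matches and fell in H9C2, and of Insig1 and Hsd17b7, which fell in H9C2 and rose in the heart, on the strand of each gene (Hmgcs1, Srebf2 and Insig1 plus, Hsd17b7 minus), with CCAAT or ATTGG and the TCACNCCAC or TCACNCCA match in capitals. The Hsd17b7 window is cut to 213 bases, those outside its gene record.
Hmgcs1, chr13:119690101-119690350: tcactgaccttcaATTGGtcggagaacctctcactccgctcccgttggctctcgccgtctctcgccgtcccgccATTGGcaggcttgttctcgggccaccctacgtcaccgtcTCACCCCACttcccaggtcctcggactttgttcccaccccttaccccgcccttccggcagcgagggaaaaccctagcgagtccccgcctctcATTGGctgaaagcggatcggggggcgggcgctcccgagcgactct
Srebf2, chr15:82147019-82147268: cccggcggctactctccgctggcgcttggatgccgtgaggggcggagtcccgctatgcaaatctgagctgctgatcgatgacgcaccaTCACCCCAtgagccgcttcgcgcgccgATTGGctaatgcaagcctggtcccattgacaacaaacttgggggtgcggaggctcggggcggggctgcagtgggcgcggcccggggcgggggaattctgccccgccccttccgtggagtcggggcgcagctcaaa
Insig1, chr5:28071162-28071411: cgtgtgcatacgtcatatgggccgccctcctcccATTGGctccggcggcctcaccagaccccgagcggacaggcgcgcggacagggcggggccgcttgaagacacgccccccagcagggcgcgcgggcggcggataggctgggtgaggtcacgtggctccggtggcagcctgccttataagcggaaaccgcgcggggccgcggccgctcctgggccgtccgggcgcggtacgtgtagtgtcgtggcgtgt
Hsd17b7, chr1:169969243-169969455: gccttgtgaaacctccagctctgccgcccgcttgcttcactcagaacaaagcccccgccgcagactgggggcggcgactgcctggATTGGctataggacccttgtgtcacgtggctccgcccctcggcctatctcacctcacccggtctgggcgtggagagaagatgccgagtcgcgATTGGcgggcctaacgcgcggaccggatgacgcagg
Hmgcs1 holds 3 CCAAT boxes and 1 TCACNCCAC element, and Srebf2 holds 1 CCAAT box and 1 match to the shorter core TCACNCCA alone. Insig1 holds 1 CCAAT box and Hsd17b7 holds 2 in the stretch shown, and neither holds a TCACNCCA match there.

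Among the 5 regulators, Insig1 moved in opposite directions in the 2 models and Srebf2 fell in H9C2. Insig1, itself an SREBP target, encodes an endoplasmic reticulum protein that retains SCAP, and its mouse gene lies at chr5:28071412-28078662. In H9C2 its RNA stood at 93.5, 95.2 and 93.4 CPM in Mettl1-null cells, against 331, 319.6 and 333 CPM in WT cells (log2 fold change -1.80, SE 0.046, edgeR adjusted p = 2.30e-07). In the hearts its RNA reached 24.6 and 22.6 CPM in cKO hearts, against 11.3 and 16.7 CPM in Ctrl hearts (log2 fold change 0.75, SE 0.14, edgeR adjusted p = 0.00214). Its footprints stood at 9.31 and 10.7 CPM in cKO hearts, against 4.41 and 7.04 CPM in Ctrl hearts (log2 fold change 0.78, SE 0.19, edgeR adjusted p = 0.0113), and without Ctrl replicate 1 that call was lost (edgeR adjusted p = 0.0797). The 3 null libraries were all far below the 3 WT libraries, and both cKO hearts were above both Ctrl hearts in RNA and in footprints. The related Insig2 showed no such pattern. Its RNA stood at 6.81, 6.098 and 6.99 CPM in Mettl1-null cells, against 7.75, 6.12 and 6.33 CPM in WT cells, and at 51.6 and 41.5 CPM in cKO hearts, against 47.8 and 50.9 CPM in Ctrl hearts, and the groups overlapped in both.

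Srebf2, which encodes the factor that drives the cholesterol genes, had 173, 164 and 174 CPM in Mettl1-null cells, against 274, 256 and 296 CPM in WT cells (log2 fold change -0.69, SE 0.061, edgeR adjusted p = 1.07e-04). In heart RNA it had 38.5 and 40.6 CPM in cKO hearts, against 44.2 and 39.8 CPM in Ctrl hearts, with overlapping groups. Srebf1, which encodes the factor that drives mainly the fatty acid genes, had 42.9, 42.4 and 42.9 CPM in Mettl1-null cells, against 51.8, 46.2 and 47.7 CPM in WT cells. All null libraries lay below all WT libraries, but the log2 fold change of -0.18 (SE 0.061) missed the threshold (edgeR adjusted p = 0.0583), and it passed with DESeq2 (adjusted p = 0.0221), with relative-log-expression factors (edgeR adjusted p = 0.0497) and without WT replicate 2 or 3 (edgeR adjusted p = 0.0283 and 0.0478). In heart RNA Srebf1 had 25.1 and 25.7 CPM in cKO hearts, against 28.8 and 27.5 CPM in Ctrl hearts (log2 fold change -0.15, SE 0.092, edgeR adjusted p = 0.325). Scap, which escorts SREBPs to the Golgi apparatus, had 70.4, 61.8 and 67.6 CPM in Mettl1-null cells, against 67.2, 61.6 and 63.9 CPM in WT cells, with overlapping groups. In heart RNA Scap had 31.2 and 31.1 CPM in cKO hearts, against 35.01 and 35.3 CPM in Ctrl hearts, and the cKO hearts lay below the Ctrl hearts by less than the test required (edgeR adjusted p = 0.197).

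**Figure D3:**
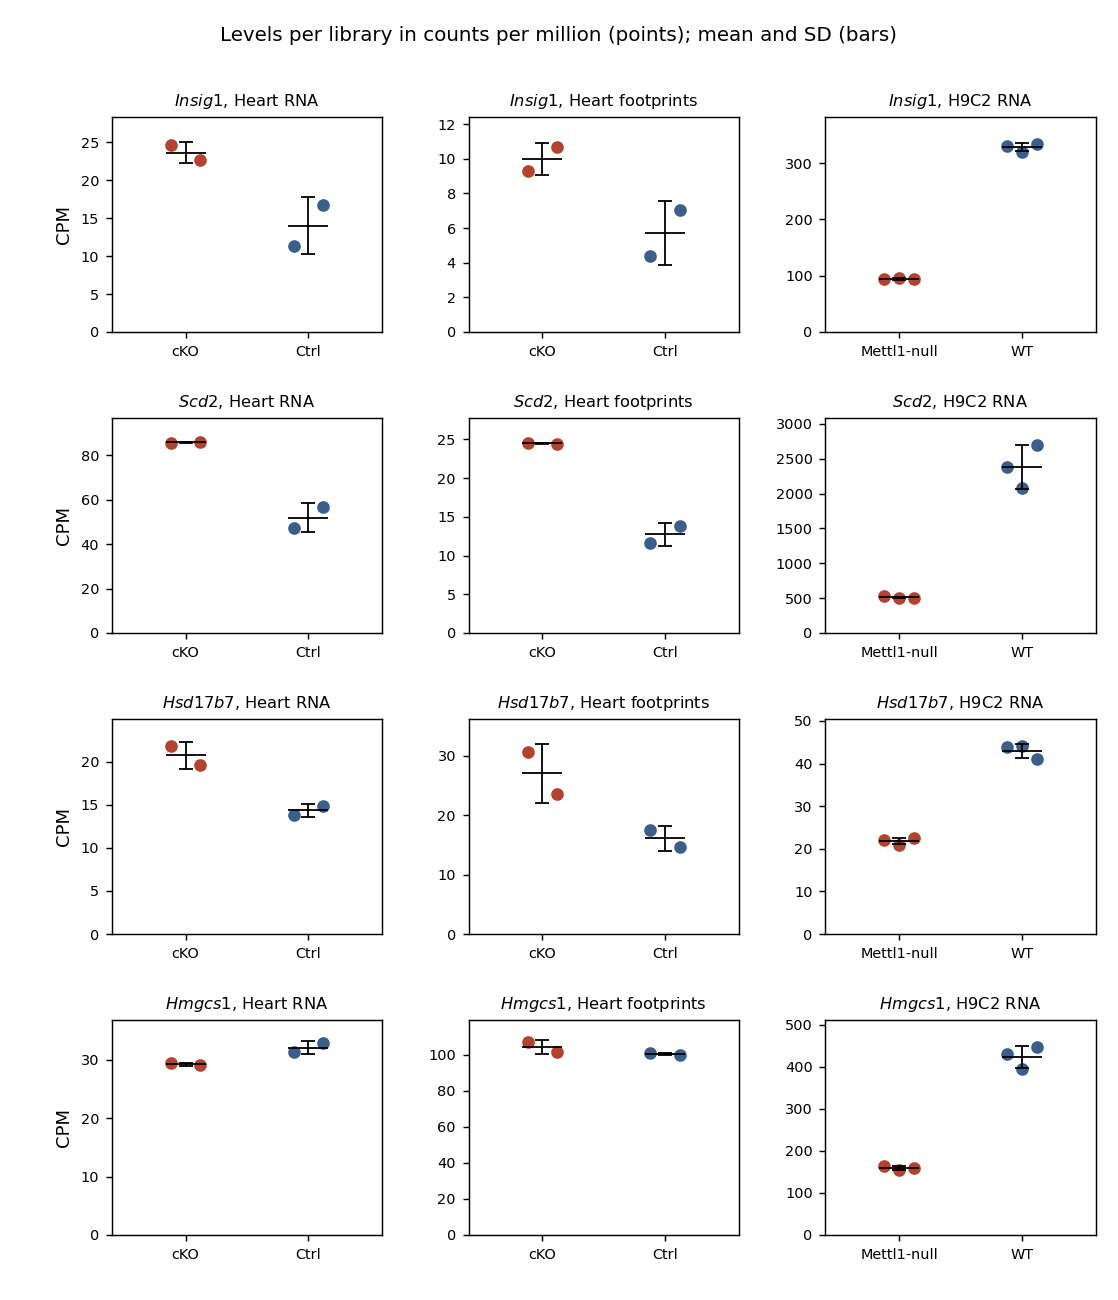
CPM (y axis, from 0) of Insig1, Scd2, Hsd17b7 and Hmgcs1 in every library of heart RNA, heart footprints and H9C2 RNA, with mean and SD as bars. Insig1, Scd2 and Hsd17b7 are higher in cKO than in Ctrl hearts and lower in Mettl1-null than in WT cells, and Hmgcs1 is far lower in Mettl1-null than in WT cells, with a small step in the heart RNA panel.

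All 7 members of the mevalonate and isoprenoid steps fell in H9C2, with log2 fold changes from -1.41 to -0.61 and edgeR adjusted p of at most 0.00136. Acat2, which joins 2 acetyl-CoA, had 56.4, 58.95 and 57.9 CPM in Mettl1-null cells, against 145, 144 and 146 CPM in WT cells. Hmgcs1, which makes HMG-CoA, had 165, 155 and 159.7 CPM in Mettl1-null cells, against 429.9, 395 and 447 CPM in WT cells, a log2 fold change of -1.41 (SE 0.059). Mvk and Pmvk encode the kinases that phosphorylate mevalonate in turn. Mvk had 16.8, 19.5 and 17.2 CPM in Mettl1-null cells, against 32.6, 33.4 and 33.1 CPM in WT cells. Pmvk had 16.4, 16.9 and 17.9 CPM in Mettl1-null cells, against 26.8, 28.2 and 23.2 CPM in WT cells. Mvd, the decarboxylase that yields isopentenyl diphosphate, had 42.3, 41.2 and 41.8 CPM in Mettl1-null cells, against 109, 110.2 and 99.97 CPM in WT cells. No null library reached the lowest WT library for any of these 5 genes. Idi1, which isomerises isopentenyl diphosphate, had 61.7, 59.3 and 62.3 CPM in Mettl1-null cells, against 131, 135 and 146 CPM in WT cells. Fdps, which makes farnesyl diphosphate, had 309, 311 and 304 CPM in Mettl1-null cells, against 658, 727 and 625 CPM in WT cells. For Idi1 and Fdps, too, the null libraries were close to each other and well below the WT libraries.

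In heart RNA the log2 fold changes of the 6 of these genes that were tested ran from -0.42 to 0.30 (lowest edgeR adjusted p = 0.0695, for Pmvk). Hmgcs1 had 29.4 and 29.1 CPM in cKO hearts, against 31.3 and 32.9 CPM in Ctrl hearts. Pmvk had 6.88 and 7.304 CPM in cKO hearts, against 9.65 and 9.36 CPM in Ctrl hearts. For both genes the cKO hearts lay below the Ctrl hearts, by a small step. Idi1 had 1.504 and 1.16 CPM in cKO hearts, against 1.54 and 1.59 CPM in Ctrl hearts, a narrower step the same way. Mvk had 6.19 and 6.14 CPM in cKO hearts, against 7.47 and 4.14 CPM in Ctrl hearts. Mvd had 5.61 and 3.296 CPM in cKO hearts, against 3.67 and 3.63 CPM in Ctrl hearts. The Mvk and Mvd groups overlapped, with the 2 Ctrl hearts far apart for Mvk and the 2 cKO hearts far apart for Mvd. Acat2 had 3.41 and 2.78 CPM in cKO hearts, against 2.45 and 3.63 CPM in Ctrl hearts, with overlapping groups. Fdps was listed at 1 or 2 counts in each heart RNA library and was not tested there.

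All 11 members that turn farnesyl diphosphate into cholesterol fell in H9C2, with log2 fold changes from -1.45 to -0.37. Fdft1, squalene synthase, had 97.4, 100.3 and 98.5 CPM in Mettl1-null cells, against 196, 202 and 187 CPM in WT cells. Sqle, the squalene epoxidase that is a further control point of the pathway, had 287, 282 and 276 CPM in Mettl1-null cells, against 436, 426 and 435 CPM in WT cells. Lss, which closes the rings to lanosterol, had 57.5, 52.5 and 56.5 CPM in Mettl1-null cells, against 118, 106 and 127 CPM in WT cells. The null libraries lay below the WT libraries for these 3 genes, by less for Sqle than for the other 2. Cyp51, the lanosterol demethylase, had 309, 316 and 300.2 CPM in Mettl1-null cells, against 845, 818 and 868 CPM in WT cells, a log2 fold change of -1.45 (SE 0.047, edgeR adjusted p = 7.49e-07). Tm7sf2, a sterol C14 reductase, had 19.1, 17.02 and 17.7 CPM in Mettl1-null cells, against 32.7, 31.5 and 27.5 CPM in WT cells. Msmo1, which oxidises the C4 methyl groups, had 179.5, 181 and 186 CPM in Mettl1-null cells, against 323, 324 and 317 CPM in WT cells. Again the 2 groups were apart for each gene, and the Msmo1 libraries lay close together within each group. Nsdhl, a decarboxylating dehydrogenase of the same C4 demethylation, had 68.4, 74.2 and 69.8 CPM in Mettl1-null cells, against 140.3, 154 and 147 CPM in WT cells. Hsd17b7, the ketoreductase of that step, had 21.97, 20.9 and 22.5 CPM in Mettl1-null cells, against 43.8, 44.1 and 41.01 CPM in WT cells. Ebp, which shifts the sterol double bond, had 28.3, 31.6 and 34.7 CPM in Mettl1-null cells, against 40.5, 44.8 and 36.8 CPM in WT cells. Ebp had the least fall of the 11 (log2 fold change -0.37, SE 0.10, edgeR adjusted p = 0.0243), and its call was lost without null replicate 1 or 2 or WT replicate 1, with edgeR adjusted p up to 0.0947. Sc5d, the sterol C5 desaturase, had 89.2, 88.2 and 88.6 CPM in Mettl1-null cells, against 141, 141 and 149 CPM in WT cells. Dhcr7, which makes cholesterol from 7-dehydrocholesterol, had 41.6, 42.5 and 43.1 CPM in Mettl1-null cells, against 117, 118 and 110.1 CPM in WT cells, a log2 fold change of -1.44 (SE 0.052). Its null libraries lay far below its WT libraries.

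In the heart, Hsd17b7 was the member of this stretch that rose. Its mouse gene lies at chr1:169949535-169969242. It had 21.8 and 19.6 CPM in cKO hearts, against 13.8 and 14.9 CPM in Ctrl hearts (log2 fold change 0.53, SE 0.11, edgeR adjusted p = 0.00465), and the call was lost without cKO replicate 1 (edgeR adjusted p = 0.0706). Its footprints had 30.5 and 23.6 CPM in cKO hearts, against 17.5 and 14.6 CPM in Ctrl hearts (log2 fold change 0.76, SE 0.14, edgeR adjusted p = 0.00124). Both cKO hearts were above both Ctrl hearts in both assays. Dhcr7 RNA leaned the same way without passing, with 10.1 and 12.3 CPM in cKO hearts, against 9.07 and 7.83 CPM in Ctrl hearts (edgeR adjusted p = 0.0917), and it passed with library totals (edgeR adjusted p = 0.0406) and without Ctrl replicate 1 (edgeR adjusted p = 0.0478). The other 8 tested had log2 fold changes between -0.39 and 0.11 in heart RNA. Cyp51 had 13.02 and 12.8 CPM in cKO hearts, against 12.04 and 12.3 CPM in Ctrl hearts, a narrow gap without overlap. Sc5d had 16.02 and 16.03 CPM in cKO hearts, against 14.1 and 15.7 CPM in Ctrl hearts, again with no overlap but a gap narrower than the spread of the Ctrl hearts. The other 6 genes of the stretch overlapped between the heart groups. Ebp had 15.7 and 14.4 CPM in cKO hearts, against 13.5 and 17.6 CPM in Ctrl hearts. Msmo1 had 7.69 and 6.08 CPM in cKO hearts, against 8.17 and 6.302 CPM in Ctrl hearts. Nsdhl had 5.96 and 4.72 CPM in cKO hearts, against 5.599 and 6.75 CPM in Ctrl hearts. The remaining 3 had few counts. Sqle had 2.55 and 2.46 CPM in cKO hearts, against 2.96 and 2.101 CPM in Ctrl hearts, Lss had 1.39 and 1.81 CPM in cKO hearts, against 1.802 and 2.36 CPM in Ctrl hearts and Tm7sf2 had 1.04 and 2.26 CPM in cKO hearts, against 1.87 and 1.72 CPM in Ctrl hearts.

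Of the 10 fatty acid members in the rat table, 9 fell, and the 2 stearoyl-CoA desaturases fell most of all 35 members. These enzymes put the double bond into stearate and palmitate. Scd had 50.8, 49.2 and 47.2 CPM in Mettl1-null cells, against 279, 261 and 305 CPM in WT cells (log2 fold change -2.52, SE 0.069, edgeR adjusted p = 2.84e-07), which is 5.74-fold lower. Scd2 had 525, 508 and 503 CPM in Mettl1-null cells, against 2375, 2076 and 2694 CPM in WT cells (log2 fold change -2.22, SE 0.089, edgeR adjusted p = 2.07e-06), which is 4.65-fold lower. The null libraries were tight for both genes, and the WT libraries differed among themselves by less than the gap. Scd and Scd2 are close copies, and the sources used here do not say how reads shared between them were counted, so the split between the 2 is uncertain.

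In the heart, Scd2 rose and Scd1 missed the threshold in the opposite direction. Scd2, at chr19:44293676-44306864, had 85.7 and 85.9 CPM in cKO hearts, against 47.4 and 56.5 CPM in Ctrl hearts (log2 fold change 0.72, SE 0.081, edgeR adjusted p = 2.42e-05). Its footprints had 24.5 and 24.4 CPM in cKO hearts, against 11.6 and 13.8 CPM in Ctrl hearts (log2 fold change 0.94, SE 0.12, edgeR adjusted p = 6.55e-05). The 2 cKO hearts were nearly equal to each other and above both Ctrl hearts. Its neighbour Scd1, at chr19:44394450-44407709, had 52.9 and 40.7 CPM in cKO hearts, against 52.4 and 69.00 CPM in Ctrl hearts (log2 fold change -0.37, SE 0.12, edgeR adjusted p = 0.0573), and its groups overlapped. It passed as lower when genes needed only 1 count to be kept (edgeR adjusted p = 0.00188), with the replicate block (0.00579), without cKO replicate 1 (0.0122) and without Ctrl replicate 1 (1.58e-05). Scd1 is abundant in fat, and adipocyte markers summed to 6.98 to 12.8 CPM in cKO hearts, against 7.59 to 12.8 CPM in Ctrl hearts. The 4 adipocyte markers tested had a median log2 fold change of -0.050. In footprints the 5 tested had a median of 0.41, with none called, and summed to 52.0 to 55.5 CPM in cKO hearts, against 31.2 to 53.5 CPM in Ctrl hearts, beside the rise of Scd2 footprints. The part of these markers in the results was not tested.

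The enzymes that supply and use acetyl-CoA also fell in H9C2. Acss2, which makes acetyl-CoA from acetate, had 18.3, 17.3 and 15.96 CPM in Mettl1-null cells, against 56.4, 52.5 and 56.3 CPM in WT cells (log2 fold change -1.68, SE 0.072). Acly, which makes it from citrate, had 185, 179.96 and 178 CPM in Mettl1-null cells, against 318, 290.3 and 326 CPM in WT cells. Fasn, the fatty acid synthase, had 371, 333 and 346 CPM in Mettl1-null cells, against 506, 439 and 549 CPM in WT cells. No null library reached the WT range for these 3 genes. Acaca, which makes malonyl-CoA, had 52.4, 44.2 and 44.7 CPM in Mettl1-null cells, against 77.4, 52.03 and 95.3 CPM in WT cells. Here the groups overlapped, since WT replicate 2 lay below null replicate 1, and the log2 fold change of -0.67 (SE 0.19, edgeR adjusted p = 0.0316) lost its call when genes needed only 1 count to be kept (edgeR adjusted p = 0.0545) and without null replicate 1, 2 or 3 or WT replicate 1 (edgeR adjusted p up to 0.115). Elovl5, Fads1 and Fads2 lengthen and desaturate polyunsaturated fatty acids. Elovl5 had 41.9, 38.5 and 38.2 CPM in Mettl1-null cells, against 49.6, 49.9 and 57.5 CPM in WT cells. Fads1 had 312, 303 and 295 CPM in Mettl1-null cells, against 488, 472 and 511 CPM in WT cells. Fads2 had 137, 133 and 132 CPM in Mettl1-null cells, against 233, 221 and 250.3 CPM in WT cells. The 3 genes fell, with log2 fold changes of -0.40, -0.69 and -0.81. Elovl6, which lengthens palmitate, was the exception, with 6.33, 5.65 and 4.97 CPM in Mettl1-null cells, against 10.2, 5.41 and 5.96 CPM in WT cells, overlapping groups and a log2 fold change of -0.34 (edgeR adjusted p = 0.319).

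In heart RNA these 8 genes had log2 fold changes between -0.082 and 0.11, with edgeR adjusted p of at least 0.551. Acss2 had 36.9 and 44.98 CPM in cKO hearts, against 35.7 and 40.2 CPM in Ctrl hearts. Acly had 64.3 and 63.5 CPM in cKO hearts, against 65.4 and 63.8 CPM in Ctrl hearts. Fasn had 52.1 and 46.9 CPM in cKO hearts, against 45.1 and 55.2 CPM in Ctrl hearts. The groups overlapped for all 3. Acaca had 17.9 and 13.5 CPM in cKO hearts, against 14.5 and 15.8 CPM in Ctrl hearts. Fads1 had 30.9 and 30.4 CPM in cKO hearts, against 26.3 and 31.8 CPM in Ctrl hearts. Fads2 had 11.3 and 10.1 CPM in cKO hearts, against 10.7 and 12.03 CPM in Ctrl hearts. These overlapped too. Elovl5 had 50.9 and 47.2 CPM in cKO hearts, against 51.4 and 52.4 CPM in Ctrl hearts, and here the higher cKO heart lay just below the lower Ctrl heart. Elovl6 was low, with 1.39 and 0.905 CPM in cKO hearts, against 1.22 and 1.02 CPM in Ctrl hearts.

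Both transport genes fell in H9C2. Stard4, a cytosolic carrier of cholesterol, had 5.799, 6.91 and 7.13 CPM in Mettl1-null cells, against 13.5, 10.2 and 13.7 CPM in WT cells (log2 fold change -0.92, SE 0.14, edgeR adjusted p = 0.00203). Abca1 exports cholesterol to lipoproteins and is a target of the sterol sensor LXR. It had 6.32, 5.84 and 5.96 CPM in Mettl1-null cells, against 15.98, 14.3 and 20.3 CPM in WT cells (log2 fold change -1.48, SE 0.14, edgeR adjusted p = 1.36e-04). The null libraries were below the WT libraries for both. In heart RNA Stard4 had 13.9 and 13.4 CPM in cKO hearts, against 11.7 and 16.2 CPM in Ctrl hearts. Abca1 had 52.4 and 48.9 CPM in cKO hearts, against 52.3 and 54.1 CPM in Ctrl hearts. Both overlapped between the heart groups.

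Footprints, the stretches of mRNA that ribosomes protect, were counted on open reading frames and measure which messages were being translated. Leaving out Fdps, whose footprints lie on a short frame, Hmgcs1 had the most footprints per 100 codons, with a mean of 20.1 CPM in cKO hearts and 19.3 CPM in Ctrl hearts. Insig2 held 14.1 CPM per 100 codons in cKO hearts and 14.2 CPM in Ctrl hearts, and Elovl5 held 11.8 CPM in cKO hearts and 12.5 CPM in Ctrl hearts. At the low end Sqle held 0.0871 CPM per 100 codons in cKO hearts and 0.11 CPM in Ctrl hearts. Elovl6, which had too few footprints to be tested, held 0.0977 CPM in cKO hearts and 0.0548 CPM in Ctrl hearts. Of the 33 members tested, 4 rose and 1 fell in cKO hearts (edgeR), beside 9.11% rising and 7.33% falling over all 13514 genes. The cKO hearts lay above both Ctrl hearts for 8 members and below both for 5, beside 28.7% and 27.1% of all genes. With library totals the 1231 higher and 990 lower genes became 1639 and 657. Scd2, Insig1 and Hsd17b7 rose in footprints as in RNA. The footprint and RNA libraries were fitted apart, but whether they came from the same hearts is not given, so the assays may not be independent. Fdps was the fourth, with 5.74 and 7.01 CPM in cKO hearts, against 4.12 and 3.76 CPM in Ctrl hearts (log2 fold change 0.70, SE 0.19, edgeR adjusted p = 0.0212). They lie on a frame of 13 codons, while the frame of 420 codons was listed at 0, so the Fdps value is uncertain, and its call was lost without cKO replicate 2 or Ctrl replicate 2 (edgeR adjusted p up to 0.180). Nsdhl fell, with 4.14 and 3.64 CPM in cKO hearts, against 6.57 and 5.53 CPM in Ctrl hearts (log2 fold change -0.63, SE 0.19, edgeR adjusted p = 0.0386). Its call was lost with library totals (edgeR adjusted p = 0.0623), with DESeq2 (adjusted p = 0.0835) and without cKO replicate 1 or 2 or Ctrl replicate 1 (edgeR adjusted p up to 0.179).

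The other 4 regulators had footprint log2 fold changes from -0.19 to 3.31e-05. Srebf1 had 41.9 and 46.6 CPM in cKO hearts, against 48.4 and 52.3 CPM in Ctrl hearts (edgeR adjusted p = 0.208), with the cKO hearts just below the Ctrl hearts. Srebf2 had 14.6 and 15.3 CPM in cKO hearts, against 13.6 and 16.2 CPM in Ctrl hearts. Scap had 10.7 and 10.5 CPM in cKO hearts, against 10.4 and 12.7 CPM in Ctrl hearts. Insig2 had 29.7 and 33.97 CPM in cKO hearts, against 33.4 and 30.5 CPM in Ctrl hearts. The last 3 overlapped between groups. Translational efficiency, the footprint change relative to the RNA change, was called for none of the 32 members tested (edgeR interaction test), beside 0.134% of all 12662 genes, 0.079% higher and 0.0553% lower. Lss was the 1 member at an unadjusted p under 0.05, with a log2 change of 1.16 (SE 0.47, edgeR adjusted p = 0.454), and DESeq2, which gave no adjusted p for 20 of the 32, called none of the rest. With RNA and footprint libraries of the same number as a block, no member was called either, while the 10 higher and 7 lower of all genes became 56 and 74. For the genes that rose, the change in translational efficiency was 0.21 (SE 0.14) for Scd2, 0.023 (SE 0.26) for Insig1 and 0.23 (SE 0.19) for Hsd17b7 on the log2 scale.

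The heart and H9C2 effects were compared directly by the interaction of genotype and system, over the 10045 genes that share a symbol and were tested in both tables. The heart log2 fold change was above that of H9C2 for 22 of the 32 members tested and below it for none (edgeR, adjusted p under 0.05). Over all genes, 19.7% differed, 9.95% above and 9.76% below. At an unadjusted p under 0.05, 25 members were above and none below, and neither DESeq2 nor limma-voom called one below. The difference was widest for Scd2, at 2.94 (SE 0.14, edgeR adjusted p = 2.15e-07), and Insig1, at 2.56 (SE 0.15, edgeR adjusted p = 8.77e-07). These 2 and Hsd17b7, at 1.51 (SE 0.12), passed the threshold in opposite directions in the 2 models. For the other 19 the heart change had not passed its own threshold. Among them were Dhcr7 at 1.85 (SE 0.14), Acss2 at 1.79 (SE 0.14), Mvd at 1.65 (SE 0.23) and Cyp51 at 1.54 (SE 0.093). Srebf2 differed by 0.61 (SE 0.10, edgeR adjusted p = 0.00168). The 10 members without a called difference were Srebf1, Scap, Insig2, Pmvk, Lss, Tm7sf2, Ebp, Acaca, Elovl5 and Elovl6. Their differences ran from -0.22 for Scap to 0.73 for Acaca, and the SE reached 0.58 for Elovl6. With limma-voom 14 differences were called, and without single libraries 16 (without heart cKO replicate 1) to 24 (without H9C2 WT replicate 2). Species, culture, the kind of deletion and sequencing depth all differ between the models and cannot be told apart from the tissue. The H9C2 side rests on a single edited line, so a trait of that line cannot be told apart from its genotype either.

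**Figure D4:**
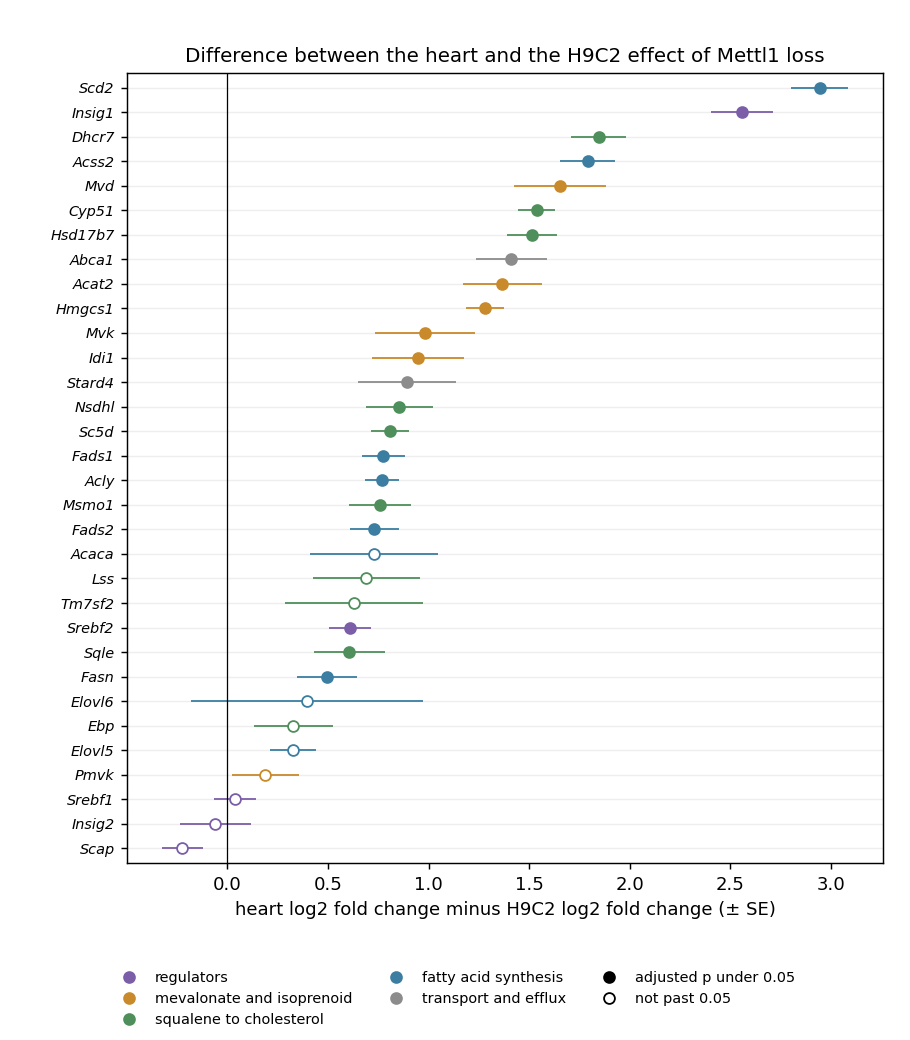
Heart log2 fold change minus H9C2 log2 fold change with its SE (x axis) for the 32 members tested in both (rows, coloured by role, filled where the edgeR adjusted p is under 0.05). Of the 32 points 30 lie right of 0, led by Scd2 and Insig1, and 22 of them are filled; Insig2 and Scap lie left of 0 and are open.

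Other genes of these pathways were read from further lists. Among other fatty acid synthesis and elongation genes, 7 of the 14 tested fell in H9C2 and none rose, with a median log2 fold change of -0.24. Over all genes tested there, 11.5% fell and 13.6% rose. Aacs, which makes acetoacetyl-CoA from ketone bodies, averaged 61.6 ± 2.91 CPM in Mettl1-null cells and 131 ± 5.37 CPM in WT cells (SD, n = 3 each) (log2 fold change -1.09, SE 0.057, edgeR adjusted p = 7.31e-06). Acsl3, a fatty acyl-CoA ligase, averaged 47.7 ± 2.73 CPM in Mettl1-null cells and 86.9 ± 0.611 CPM in WT cells (SD, n = 3 each) (log2 fold change -0.87, SE 0.057). Mid1ip1, an activator of acetyl-CoA carboxylase, averaged 89.7 ± 1.73 CPM in Mettl1-null cells and 128 ± 6.56 CPM in WT cells (SD, n = 3 each) (log2 fold change -0.52, SE 0.053). In heart RNA 14 genes of the list were tested too, but not the same 14. Tecr and Lpin1, which fell in H9C2, were not matched in the heart, and Thrsp and Mlxipl were not tested in H9C2. Of the 14 in heart RNA, 2 rose and 1 fell, beside 8.16% rising and 6.26% falling over all genes. Thrsp, a lipogenic regulator, averaged 32.1 ± 4.48 CPM in cKO hearts and 19.8 ± 1.38 CPM in Ctrl hearts (SD, n = 2 each) (log2 fold change 0.70, SE 0.11). Gpam, which starts glycerolipid synthesis, averaged 394 ± 14.4 CPM in cKO hearts and 295 ± 0.844 CPM in Ctrl hearts (SD, n = 2 each) (log2 fold change 0.42, SE 0.054). Acacb, the mitochondrial acetyl-CoA carboxylase whose malonyl-CoA restrains fatty acid oxidation, averaged 356 ± 23.3 CPM in cKO hearts and 456 ± 7.67 CPM in Ctrl hearts (SD, n = 2 each) (log2 fold change -0.36, SE 0.057). In footprints 5 of the 14 rose and 2 fell, beside 9.11% rising and 7.33% falling over all genes. The risers included Aacs (log2 fold change 0.81, SE 0.17) and Acsl3 (log2 fold change 0.69, SE 0.13), which had fallen in H9C2 RNA. In heart RNA neither was called, with log2 fold changes of 0.13 for Aacs (edgeR adjusted p = 0.705) and 0.41 for Acsl3 (edgeR adjusted p = 0.193).

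Of 6 LXR genes other than Abca1, 4 were tested in H9C2. There 2 fell and none rose, beside 11.5% falling and 13.6% rising over all genes. Nr1h2 (edgeR adjusted p = 0.0612) and Apoe (edgeR adjusted p = 0.339) were not called in H9C2. Mylip, a ubiquitin ligase that removes lipoprotein receptors, fell there, with an average of 11.2 ± 0.1302 CPM in Mettl1-null cells and 21.8 ± 0.415 CPM in WT cells (SD, n = 3 each) (log2 fold change -0.95, SE 0.070). Lpcat3, which puts polyunsaturated chains into phospholipids, fell in both models. It averaged 40.1 ± 0.891 CPM in Mettl1-null cells and 103 ± 0.892 CPM in WT cells (SD, n = 3 each) (log2 fold change -1.37, SE 0.048), and 41.4 ± 3.12 CPM in cKO hearts and 51.9 ± 2.36 CPM in Ctrl hearts (SD, n = 2 each) (log2 fold change -0.33, SE 0.082). The fall was larger in H9C2, by 1.04 on the log2 scale (SE 0.091, edgeR adjusted p = 1.38e-05). In heart RNA Lpcat3 alone of the 6 was called, beside 6.26% falling and 8.16% rising over all genes. In footprints Lpcat3 fell and Apoe rose (log2 fold change 0.24, SE 0.074, edgeR adjusted p = 0.0400), beside 7.33% and 9.11% of all genes. Among 8 genes of SREBP processing and sterol-regulated degradation, 1 rose and 1 fell in H9C2, beside 13.6% rising and 11.5% falling over all genes. Mbtps1, the protease that first cuts SREBPs, averaged 169 ± 6.33 CPM in Mettl1-null cells and 198 ± 16.5 CPM in WT cells (SD, n = 3 each) (log2 fold change -0.23, SE 0.067, edgeR adjusted p = 0.0354). Rnf145 was the gene that rose (log2 fold change 0.21, SE 0.063, edgeR adjusted p = 0.0415). In heart footprints 2 of the 8 rose and 1 fell, beside 9.11% and 7.33% of all genes. Mbtps1 was among those that rose there (log2 fold change 0.36, SE 0.12, edgeR adjusted p = 0.0435). Of 13 genes of cholesterol uptake, trafficking and esterification, 1 rose and 3 fell in heart RNA, beside 8.16% and 6.26% of all genes. In H9C2, 2 of 13 rose and none fell, beside 13.6% and 11.5% of all genes. The 2 sets of 13 differ, since Cd36 was not matched in H9C2 and Gramd1b, not called in H9C2, was not matched in the heart. Nceh1, a cholesterol ester hydrolase, rose in both, with 228 ± 3.202 CPM in cKO hearts and 171 ± 4.09 CPM in Ctrl hearts (SD, n = 2 each) (log2 fold change 0.41, SE 0.057) and 56.9 ± 1.196 CPM in Mettl1-null cells and 47.7 ± 2.95 CPM in WT cells (SD, n = 3 each) (log2 fold change 0.25, SE 0.062). Cd36, the fatty acid transporter, fell in the heart, with 1396 ± 56.8 CPM in cKO hearts and 1652 ± 55.9 CPM in Ctrl hearts (SD, n = 2 each) (log2 fold change -0.24, SE 0.049). The 9 genes of other isoprenoid branches had median log2 fold changes of 0.0034 in heart RNA and -0.072 in H9C2.

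Markers of some cell types moved beside these genes in both models, and those of others did not. In heart RNA, 3 of 4 erythroid markers rose, at a summed 1478 to 2308 CPM in cKO hearts, against 1351 to 1470 CPM in Ctrl hearts. Of 5 cardiomyocyte markers 2 fell, and of 5 endothelial markers 1 fell. Over all genes in heart RNA, 8.16% rose and 6.26% fell. None of the 5 fibroblast, 5 macrophage, 5 smooth muscle and pericyte, 3 Schwann cell and 4 adipocyte markers tested was called in heart RNA. Schwann cell markers summed to 10.5 to 10.8 CPM in cKO hearts, against 9.72 to 13.5 CPM in Ctrl hearts. In H9C2, 3 of 4 myoblast markers rose and 1 fell. Of 4 smooth muscle and pericyte markers tested there, 2 rose and 2 fell. Of 3 cardiomyocyte markers tested there, 1 fell, Tnnt2 (log2 fold change -1.57, SE 0.093, edgeR adjusted p = 1.38e-05). The 1 brown adipocyte marker tested rose, and none of the adipocyte, endothelial, macrophage or Schwann cell markers tested was called. Of 5 fibroblast markers 1 rose and 3 fell, beside 13.6% rising and 11.5% falling over all genes. The fibroblast markers summed to 7736 to 8164 CPM in Mettl1-null cells, against 9351 to 9817 CPM in WT cells. The part of these shifts in the results was not tested. Several mouse gene records overlap another record (Srebf1 and Rai1, Tm7sf2 and Vps51, Acaca and Tada2a, Acss2 and Acss2os, Insig1 and Gm35223), and with no strand setting given, their reads cannot be told apart.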

How the data were processed

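Heart RNA was measured in 4 libraries, heart footprints in 4 and H9C2 RNA in 6 of the 18 samples of the series, and the 4 tRNA libraries were not analysed here. The authors deposited read counts per gene for heart RNA and H9C2 and footprint counts per open reading frame, as whole numbers without normalization, which was read from the values. The H9C2 columns carry the names of annotation files, so those deposited counts may have been estimated from StringTie coverage rather than counted read by read, which the sources used here do not settle. The submitters' processing notes name cutadapt, STAR, HISAT2, featureCounts, StringTie, DESeq2, Bowtie, Bowtie2, GRCm38 and Rnor_6.0; which tool made which table, its strand setting and its handling of reads that match several places are not given in the sources used here. Close copies (Scd1, Scd2, Scd, Acat2, Fdps) are therefore uncertain.

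Samples were grouped by their labels and columns matched by name. Each gene kept the frame with the most footprints. Counts were tested with edgeR 4.0.16 (TMM, filterByExpr with a minimum count of 10, glmQLFit and glmQLFTest, Benjamini-Hochberg adjustment over all genes tested, threshold 0.05) in R 4.3.3. The SE is the absolute log2 fold change over the square root of F. Translational efficiency and the difference between heart and H9C2 were tested as interactions, the second over genes paired by symbol with TMM factors within each table. Deviations from the group means of same-numbered RNA and footprint libraries correlated at 0.11 in cKO and 0.19 in Ctrl hearts. With 2 libraries a group, both pairs of a group share 1 value, so these correlations cannot establish a pairing. The labels do not give one. The script was tested on simulated data. Alternatives were relative-log-expression factors, library totals, 2 filters on low counts, DESeq2 1.42.0, limma-voom (limma 3.58.1), other frame choices, a replicate block and leaving out each replicate. With library totals, the all-gene median of the log2 fold changes shifted by less than 0.1. With total counts of 15052652 to 94202947 per library, precision for genes at a few CPM is limited by counting.

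The members and lists were chosen with earlier results of these data known. Libraries are given for every member past adjusted p 0.05 in any comparison and for the 5 regulators, and of each other list the genes past 0.05, at most 4 per comparison by smallest adjusted p, of which some are named as examples. Elovl6 and Scd1 were added after their values were seen. The heart RNA result of the SREBP processing list is not reported here.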

Additional observations from a re-analysis of the deposited data

Results flagged for a closer look

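For 22 of the 32 members tested, the change between genotypes differed between heart RNA and H9C2 RNA (edgeR interaction test, adjusted p under 0.05). Over all 10045 genes tested, 19.7% differed, 9.95% above 0 and 9.76% below. In H9C2 the genotype cannot be told apart from other traits of the single edited line. All values are the heart log2 fold change minus the H9C2 log2 fold change, and all 22 are above 0. Among the regulators the difference was 2.56 for Insig1 and 0.61 for Srebf2. Among the mevalonate steps it was 1.65 for Mvd, 1.37 for Acat2, 1.28 for Hmgcs1, 0.98 for Mvk and 0.95 for Idi1. Among the steps from squalene to cholesterol it was 1.85 for Dhcr7, 1.54 for Cyp51, 1.51 for Hsd17b7, 0.85 for Nsdhl, 0.81 for Sc5d, 0.76 for Msmo1 and 0.61 for Sqle. Among the fatty acid genes it was 2.94 for Scd2, 1.79 for Acss2, 0.77 for Fads1, 0.77 for Acly, 0.73 for Fads2 and 0.50 for Fasn. Of the transport genes, Abca1 differed by 1.41 and Stard4 by 0.89.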

How the results depend on the processing

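With 2 hearts a group, single libraries decide the weaker calls. Members called lower in heart RNA numbered 0, and 1 (Scd1) with no filter beyond 1 count or with the replicate block, and 0 to 1 without single replicates. Members called lower in footprints numbered 1 (Nsdhl), 0 with library totals or DESeq2, and 0 to 1 without single replicates. Differences between heart and H9C2 numbered 22, and 14 with limma-voom, which lost Fads2, Fasn, Idi1, Msmo1, Mvk, Nsdhl, Sqle and Stard4; without heart cKO replicate 1 the loss was of Fasn, Idi1, Msmo1, Mvk, Nsdhl, Sqle and Stard4. The other counts of members called stayed within 1.5 times under every alternative run. Over all genes, DESeq2 called 623 higher and 457 lower in heart RNA, against 1150 and 882 with edgeR, and for translational efficiency 12 and 37, against 10 and 7. The causes were not tested.

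Between genotypes, deviations of same-numbered libraries correlated at 0.026 in heart RNA, -0.015 in footprints and 0.00029, 0.12 and -0.16 in H9C2. In H9C2, null replicate 1 correlated at 0.30 with WT replicate 3 and at -0.28 with WT replicate 2. No pairing by replicate number was established from these values. With the replicate block, besides Scd1 in heart RNA, the difference of Sqle lost its call (0.60, edgeR adjusted p = 0.0559).

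Single genes were rerun where called, with the 5 regulators in each comparison but translational efficiency, for which Scd2, Hsd17b7, Insig1 and Nsdhl were rerun. Of these, signs turned for uncalled regulators and an uncalled translational efficiency; the other members were not rerun singly. On the log2 scale, Insig2 in H9C2 was 0.016 with library totals and -0.084 to 0.091 without single replicates. Insig2 in footprints was 0.066 with library totals, 0.027 with frames summed and -0.11 to 0.083 without single replicates, and in heart RNA -0.25 to 0.062. Scap in footprints was -0.26 to 0.026 without single replicates. Srebf2 in footprints was -0.00517 with relative-log-expression factors, -0.00349 with at least 1 count, -0.00365 with DESeq2, -0.00547 with limma-voom, -0.00181 with frames summed and -0.12 to 0.14 without single replicates. Without single replicates, the difference ran from -0.23 to 0.090 for Insig2 and from -0.017 to 0.074 for Srebf1, and the translational efficiency change of Insig1 from -0.13 to 0.18. At these depths, genes at about 1 CPM in the heart (Idi1, Lss, Tm7sf2, Elovl6) have SEs above 0.3, so small changes of these genes were not detectable at this depth.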
